A study of Mus musculus with 34 samples.

Results

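The genes for collagen chains were taken from the deposited expression table of mouse embryonic stem cells by their symbols, as every row named Col, a type number, the letter a and a chain number. The rule found 44 of the 23366 rows of the table and used no measured value. They were separated into 9 chains of the fibrillar types (1, 2, 3, 5 and 11), 6 chains of the basement membrane collagen (type 4) and 29 chains of other types. RNA-seq was analysed in 4 libraries of J1, an established mouse embryonic stem cell line, labelled as passage 40 and grown on gelatin-coated plates. The study's text gives a lower passage for these cells, and which is right was not settled. The serum/-LIF group held 2 libraries from serum medium without leukaemia inhibitory factor (LIF), the cytokine that holds such cells undifferentiated. The serum/-LIF + Royalactin group held 2 libraries from the same medium, also without LIF, with 0.5 mg/ml of purified Royalactin, a honeybee royal jelly protein. The comparison asks how cells without LIF differ when Royalactin is present. The 30 ATAC-seq samples of the series and cultures with LIF were not analysed here, so no value describes the level of a chain in cells kept with LIF.

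A collagen molecule is a rod of 3 chains wound around each other, and each chain of the rod repeats a unit of 3 residues that opens with glycine, the smallest amino acid. Fibrillar collagens have a long unbroken rod and pack into the fibrils of skin, bone, tendon and cartilage. Type 4 collagen has a rod with many breaks and joins into a flexible sheet, the scaffold of the basement membrane, which is the first matrix an embryo lays down. Other collagens decorate fibrils, span cell membranes, anchor epithelia or release signalling fragments. Embryonic stem cells in culture can make basement membrane components and can also attach to the gelatin of their dish, which is itself denatured collagen from outside the cells and leaves no RNA in the libraries.

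The repeat that defines the family can be read in the coding sequence, because all glycine codons begin with GG. One exon inside the rod is shown for each of 7 chains on which the results below turn, read 5′ to 3′ on the coding strand of the mouse genome (mm9) with in-frame glycine codons in capitals. Exons of 54 bases from Col2a1 (chr15:97828976-97829029, minus strand, coding exon 6), Col5a1 (chr2:27820771-27820824, plus strand, coding exon 15) and Col9a2 (chr4:120716301-120716354, plus strand, coding exon 5) are followed by exons of the type 4 chains Col4a1 (chr8:11244486-11244569, minus strand, coding exon 9), Col4a2 (chr8:11402163-11402234, plus strand, coding exon 7) and Col4a5 (chrX:138013215-138013295, plus strand, coding exon 9) and by an exon of Col18a1 (chr10:76541021-76541098, minus strand, coding exon 10).
Col2a1: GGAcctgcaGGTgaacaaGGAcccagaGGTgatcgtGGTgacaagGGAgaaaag
Col5a1: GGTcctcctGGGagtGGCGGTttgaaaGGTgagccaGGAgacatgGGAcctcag
Col9a2: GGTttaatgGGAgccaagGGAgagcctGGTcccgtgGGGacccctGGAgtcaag
Col4a1: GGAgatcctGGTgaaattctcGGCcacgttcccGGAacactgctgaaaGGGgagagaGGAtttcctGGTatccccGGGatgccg
Col4a2: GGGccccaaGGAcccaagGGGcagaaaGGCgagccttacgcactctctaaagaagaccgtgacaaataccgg
Col4a5: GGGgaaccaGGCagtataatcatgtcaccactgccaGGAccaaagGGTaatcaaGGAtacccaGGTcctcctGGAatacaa
Col18a1: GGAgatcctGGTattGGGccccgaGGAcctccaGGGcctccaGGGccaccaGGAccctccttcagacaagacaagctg
In the Col2a1 and Col9a2 exons a glycine codon opened every group of 3 codons from end to end, and the Col5a1 exon kept that frame and held 1 extra glycine codon. In the type 4 exons and in Col18a1 the capitals lost their spacing where the repeat was interrupted. The exons were picked to show this, unbroken ones for Col2a1, Col5a1 and Col9a2 and interrupted ones for Col4a1, Col4a2, Col4a5 and Col18a1. They are illustrations and not a measured difference.

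Whole coding sequences were read without such a choice of exons. A run of at least 30 codon triplets, each opened by a glycine codon, was found in 42 of the 44 collagen genes and in 51 of all 21819 coding genes of the annotation (0.234%). The 9 other genes were C1qtnf2, C1qtnf7, C1qtnf9, Colec12, Colq, Marco, Otol1, Scara3 and Sftpd. In the 9 fibrillar chains the longest run spanned 337 to 344 triplets, and 42.9% to 49.0% of the inner coding exons were exactly 54 bases long. In the 6 type 4 chains the longest run spanned 39 to 66 triplets, the rod was divided into 22 to 27 runs, and 2.22% to 5.88% of the inner coding exons had 54 bases. Col24a1 and Col27a1, counted here with the other types by their numbers, had runs of 216 and 217 triplets and are usually grouped with the fibril-forming collagens.

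**Figure D1:**
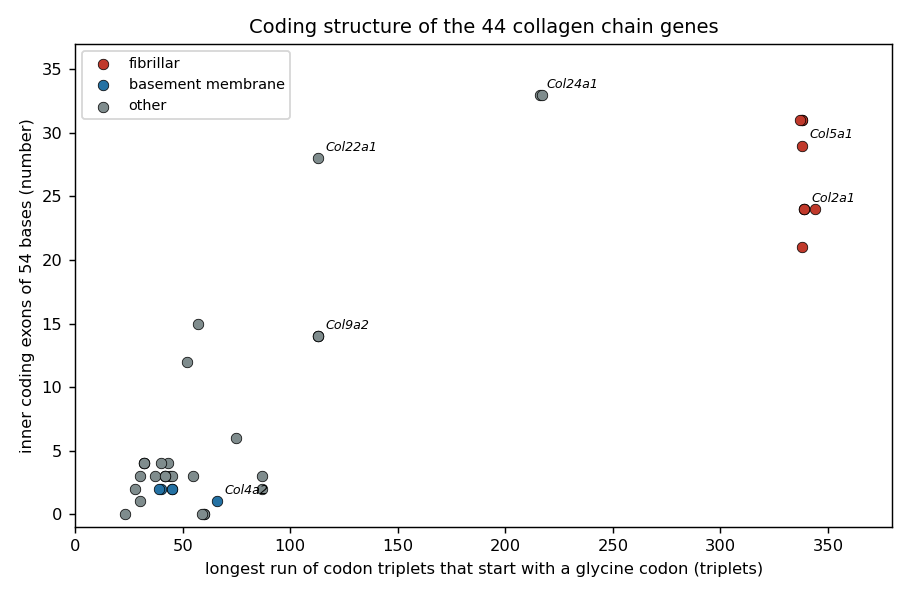
Each point is one collagen gene, placed by the longest unbroken run of glycine-led codon triplets in its coding sequence and by the number of its inner coding exons that are 54 bases long, with colours for fibrillar, type 4 and other chains. The 9 fibrillar chains stand at 337 to 344 triplets and the 6 type 4 chains at 39 to 66.

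The table holds normalized counts, that is, reads counted on a gene divided by a size factor for the library. One read was worth 1.34 and 1.04 normalized counts in serum/-LIF replicates 1 and 2, and 1.01 and 0.688 in serum/-LIF + Royalactin replicates 1 and 2. Libraries held 14737796 to 17597818 reads on genes, of which the ribosomal RNA precursor Rn45s took 9.08% to 46.6%, and 3 reads, the limit that a count of 0 allows, corresponded to 2.07 to 4.01 normalized counts. Such limits and the counting intervals below cover counting error only, because PCR copies of a molecule are counted as reads too. The design text calls replicates biological duplicates and gives no more detail, so p-values measure the spread between these samples. Fewer cells that express a gene and less RNA per cell cannot be told apart in these bulk libraries.

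The 44 chains together reached 6749 and 4002 normalized counts in the serum/-LIF libraries and 4893 and 4985 in the Royalactin libraries, so the summed level overlapped between the groups. Most of this RNA came from 3 genes. Col18a1, Col4a1 and Col4a2 supplied 77.4% to 87.0% of the collagen sum in each library. At the other end, 5 chains (Col10a1, Col15a1, Col4a3, Col4a4 and Col8a1) had no read in any library, and between 25 and 33 chains had at least 1 read per library.

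**Figure D2:**
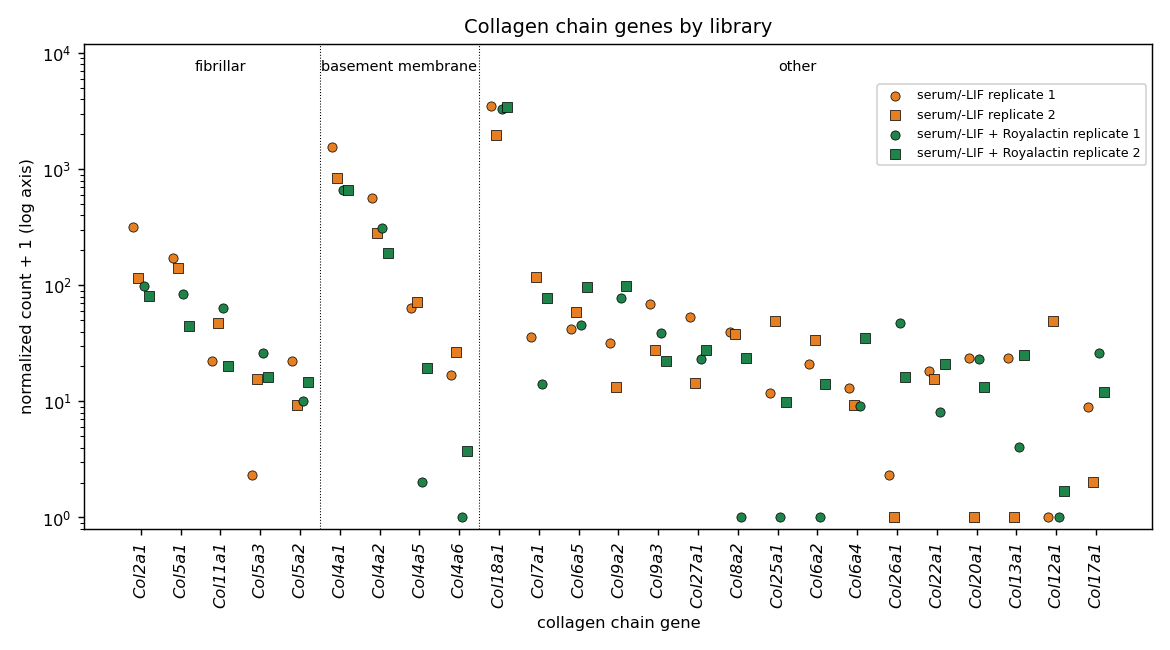
Normalized counts of the tested collagen chains in each of the 4 libraries, on a log axis of normalized count + 1, grouped into fibrillar, type 4 and other chains, with serum/-LIF in orange and serum/-LIF + Royalactin in green. Col18a1 and Col4a1 stand above the other chains in all 4 libraries, and Col11a1, Col5a2 and Col5a3 lie under 100 in all 4.

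Levels of different genes were compared per kb of exon, as the mean of the 4 libraries. Col18a1 led with 434.7 normalized counts per kb, above 87.6% of the 12279 tested genes with a known exon length. Col4a1 followed with 135.7 per kb at the 66.1 percentile, and Col4a2 with 51.1 per kb at the 43.4 percentile. The highest fibrillar chain was Col2a1 at 25.1 per kb, and Col5a1 reached 12.9 per kb, at the 29.1 and 18.4 percentiles of tested genes. The 3 leading chains, all components of basement membranes, therefore ranked above every fibrillar chain per kb, whereas Col4a5 stood below Col2a1 and Col5a1 at 5.69 per kb.

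Of the 44 chains, 25 had a mean of at least 10 normalized counts over the 4 libraries and were tested, with 5 fibrillar, 4 type 4 and 16 other chains among them. Differences are given as log2 fold changes of the normalized count + 1, serum/-LIF + Royalactin minus serum/-LIF, from limma with Benjamini-Hochberg adjustment over 12993 genes. No collagen chain passed an adjusted p of 0.05, a limit that 0.493% of all tested genes passed. The lowest adjusted p of a chain by limma was 0.378, for Col4a5, and 4 of 25 chains had an unadjusted p under 0.05 (9.34% of all tested genes), 3 with lower and 1 with higher values in Royalactin (4.58% and 4.76% of all tested genes). With an unadjusted p under 0.05 and at least a 2-fold difference, limits the study used to select genes, there were 3 of 25 chains (12.0%), against 7.13% of all tested genes: Col4a5 and Col5a1 with lower values in Royalactin (3.61% of all tested genes) and Col9a2 with higher values (3.52%). With a library left out this number of chains changed, as did the number over all genes. The log2 fold changes then ran from -5.07 to -1.79 for Col4a5, from -1.81 to -0.90 for Col5a1 and from 1.48 to 2.72 for Col9a2.

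The fitted value was lower with Royalactin for 15 of the 25 chains and higher for 10, where 50.6% of all tested genes were lower. The median log2 fold change of the chains was -0.38, beside -0.01 over all tested genes. Without serum/-LIF replicate 1 the median of the chains was -0.06, beside -0.02 over all genes tested in that fit. Without Royalactin replicate 2 it was -0.79, beside 0.01. Both Royalactin libraries lay below both serum/-LIF libraries for 8 chains (32.0%; 18.9% of all tested genes) and above them for 4 chains (16.0%; 19.7% of all tested genes). For 8 of the 25 chains 1 group had a mean under 10, and these were tested only because of the other group. They were Col12a1, Col25a1, Col4a5, Col4a6 and Col6a2, lower with Royalactin, and Col17a1, Col26a1 and Col5a3, higher with it. Reaching the level for a test in this way favours the direction seen. Standard errors ran from 0.33 to 3.09 on the log2 scale, and 17 of the 25 chains had a mean under 50.

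**Figure D3:**
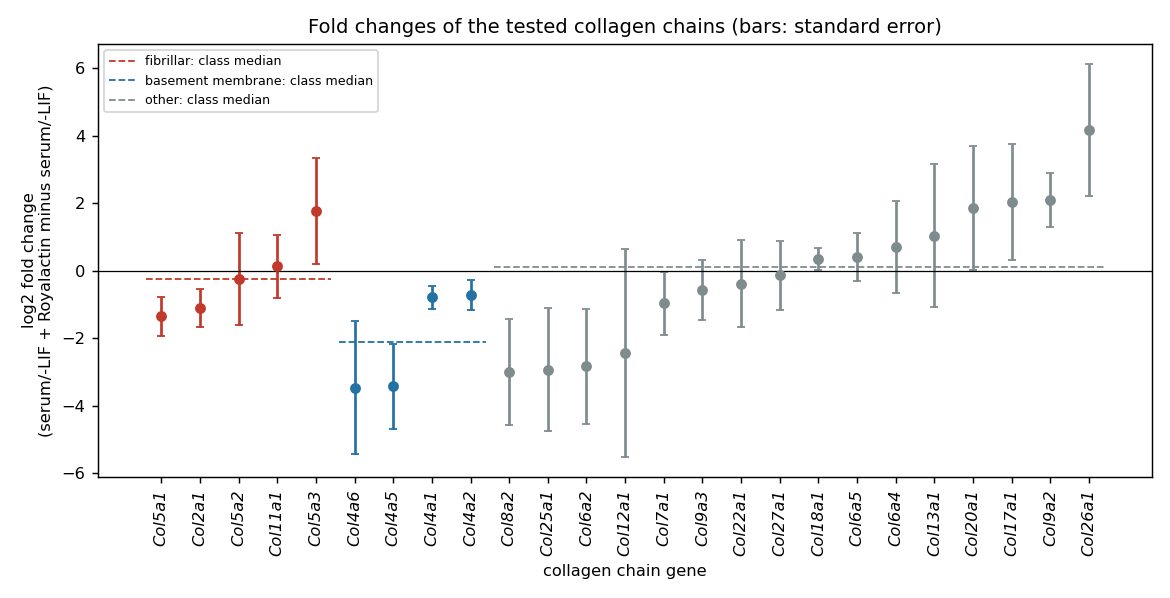
Log2 fold change of each tested collagen chain, serum/-LIF + Royalactin minus serum/-LIF, with its limma standard error as a bar, by class. Dashed lines are class medians. The 4 type 4 chains all lie below 0, and the fibrillar and other chains lie on both sides of it.

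All 4 tested type 4 chains had lower fitted values with Royalactin, at a median log2 fold change of -2.11. For Col4a1, Col4a5 and Col4a6 the groups did not overlap, so leaving out a library could not change the sign. Col4a2, whose groups overlapped, kept its sign in every such fit, at -0.20 without serum/-LIF replicate 1. Col4a6 was under the level for a test without either serum/-LIF library. Col4a5 and Col4a6 reached that level only through the serum/-LIF group, which favours a lower direction, and the median of the remaining pair, Col4a1 and Col4a2, was -0.75. Type 4 collagen is built from 6 genes arranged as head-to-head pairs, and the 2 pairs with reads here code for the chains of the common basement membrane network and for a second network made by certain tissues. Col4a1, the main chain of the common network, measured 1541 and 839 normalized counts in serum/-LIF and 658 and 663 with Royalactin. The Royalactin libraries were almost equal and lay below both serum/-LIF libraries, which differed from each other by 1.84-fold. The log2 fold change was -0.78 ± 0.35 (SE, n = 2 per group; limma unadjusted p = 0.0403, adjusted p = 0.506), and it was -0.35 without serum/-LIF replicate 1 and -1.22 without serum/-LIF replicate 2.

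Col4a2, which joins with Col4a1 in the same molecule, measured 570 and 280 normalized counts in serum/-LIF and 314 and 189 with Royalactin. The groups overlapped, since serum/-LIF replicate 2 lay under Royalactin replicate 1, and the log2 fold change was -0.71 ± 0.44 (SE; limma adjusted p = 0.670), or -0.20 without serum/-LIF replicate 1. The genes face away from each other on chromosome 8, Col4a1 on the minus strand at chr8:11198423-11312826 and Col4a2 on the plus strand at chr8:11312805-11449287, with first exons that overlap by 22 bases. The strand setting of the counting is not given in the sources used here, so reads in that overlap could belong to either gene. Per kb of exon, Col4a1 exceeded Col4a2 by 2.63 and 2.91 times in serum/-LIF and by 2.04 and 3.41 times with Royalactin, so the ratio of the chains overlapped between the groups.

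Col4a5 had the lowest p-value of all chains. It measured 62.9 and 70.4 normalized counts in serum/-LIF, from 47 and 68 reads, and 1.01 and 18.6 with Royalactin, from 1 and 27 reads. The serum/-LIF libraries lay close together and above both Royalactin libraries, which were far apart from each other. The log2 fold change was -3.43 ± 1.25 (SE; limma unadjusted p = 0.0163, adjusted p = 0.378), and it was -1.79 without Royalactin replicate 1 and -5.07 without Royalactin replicate 2. The unadjusted limma p was 0.120 and 0.00652 in these fits, and 0.0787 and 0.0708 without serum/-LIF replicates 1 and 2.

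Col4a6, whose start lies 1309 bases from that of Col4a5 on the opposite strand of the X chromosome, measured 16.0 and 25.9 normalized counts in serum/-LIF and 0 and 2.75 with Royalactin. These values rest on 12 and 25 reads against 0 and 4, and the groups did not overlap. Its log2 fold change was -3.47 ± 1.98 (SE; limma adjusted p = 0.641). Col4a3 and Col4a4, the remaining pair, whose starts are 72 bases apart on chromosome 1 and whose products belong to the mature kidney, lung and eye, were without a read in all 4 libraries. The pairs therefore differed in level, with Col4a1 and Col4a2 high, Col4a5 and Col4a6 low, and Col4a3 and Col4a4 at 0.

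Among fibrillar chains the median log2 fold change of the 5 tested was -0.24, with 3 lower and 2 higher. Col2a1, the chain of cartilage collagen, measured 314 and 115 normalized counts in serum/-LIF and 97.6 and 79.2 with Royalactin. Both Royalactin libraries lay below both serum/-LIF libraries, but serum/-LIF replicate 2 was nearer to them than to replicate 1. The log2 fold change was -1.10 ± 0.56 (SE; limma unadjusted p = 0.0713, adjusted p = 0.596), and it was -0.38 without serum/-LIF replicate 1 and -1.83 without serum/-LIF replicate 2.

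Col5a1 codes for a chain of type 5 collagen, which starts and limits the growth of type 1 fibrils. It measured 170 and 141 normalized counts in serum/-LIF and 82.5 and 43.4 with Royalactin. Here the serum/-LIF libraries were close and both exceeded the Royalactin libraries, with a log2 fold change of -1.35 ± 0.57 (SE; limma unadjusted p = 0.0340, adjusted p = 0.475). The unadjusted limma p was 0.119 without serum/-LIF replicate 1 and 0.228 without Royalactin replicate 2, where the log2 fold change was -0.90.

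The remaining fibrillar chains were low. Col11a1, a chain of the thin fibrils of cartilage, measured 21.4 and 46.6 normalized counts in serum/-LIF and 62.4 and 19.3 with Royalactin. Col5a2, which joins with Col5a1 in type 5 molecules, measured 21.4 and 8.28 in serum/-LIF and 9.05 and 13.8 with Royalactin. Both chains overlapped between the groups, and their log2 fold changes were 0.13 ± 0.93 and -0.24 ± 1.37 (SE). Col5a3, a minor chain of type 5, measured 1.34 and 14.5 normalized counts in serum/-LIF and 25.1 and 15.1 with Royalactin, and its Royalactin libraries were the higher, by a margin of less than 1 normalized count between the nearest libraries (log2 fold change 1.77 ± 1.56, SE, or 0.41 without serum/-LIF replicate 1).

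The chains of types 1 and 3, which make up most of the collagen of connective tissue and which fibroblasts express strongly, did not reach the level for a test. Col1a1 had 9 and 11 reads in serum/-LIF and 0 and 6 with Royalactin. Col1a2 had 0 and 1 reads in serum/-LIF and 10 and 0 with Royalactin, and Col3a1 had 16 and 6 against 0 and 5. Together the 3 genes had 25 and 18 reads in serum/-LIF and 10 and 11 with Royalactin, which is 33.4 and 18.6 against 10.1 and 7.57 normalized counts. The Royalactin libraries were the lower in this sum, which was not tested. Col11a2, the remaining fibrillar chain, had 18 and 7 reads in serum/-LIF and none with Royalactin, which makes it at least 6.16-fold lower against a floor of 3 reads per library.

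Col18a1 had the highest level of all collagen chains and codes for a basement membrane collagen whose end fragment is endostatin, an inhibitor of vessel growth. It measured 3523 and 1979 normalized counts in serum/-LIF and 3283 and 3423 with Royalactin. Royalactin replicates lay between the serum/-LIF replicates, and the log2 fold change was 0.34 ± 0.33 (SE; limma adjusted p = 0.804), with a value of -0.07 without serum/-LIF replicate 2. A difference for Col18a1 was thus not seen beyond the spread of the serum/-LIF libraries.

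Col9a2 and Col9a3 code for chains of type 9 collagen, a short collagen that sits on the surface of type 2 fibrils. Col9a2 measured 30.8 and 12.4 normalized counts in serum/-LIF and 77.4 and 98.4 with Royalactin, and both Royalactin libraries exceeded both serum/-LIF libraries. The log2 fold change was 2.10 ± 0.81 (SE; limma unadjusted p = 0.0215, adjusted p = 0.404), with unadjusted limma p-values of 0.0521 without serum/-LIF replicate 2, 0.0897 without Royalactin replicate 1 and 0.152 without Royalactin replicate 2. Col9a3 measured 68.2 and 26.9 normalized counts in serum/-LIF and 38.2 and 21.3 with Royalactin, and the groups overlapped (log2 fold change -0.57 ± 0.88, SE). The remaining chain, Col9a1, had 9 reads in Royalactin replicate 2 and none in the other libraries. The fitted signs of Col9a2 and Col9a3 were thus opposite, but that of Col9a3 was not stable, at 0.0848 without serum/-LIF replicate 1. Of the exon length of Col9a3, 6.07% overlaps the gene Tcfl5 on the other strand.

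Col7a1, which forms the fibrils that anchor skin to its basement membrane, measured 34.8 and 116 normalized counts in serum/-LIF and 13.1 and 77.1 with Royalactin. The replicates of each group were further apart than the groups, and the log2 fold change was -0.96 ± 0.94 (SE). Col6a5, a chain of the beaded filaments of type 6, measured 41.5 and 58.0 normalized counts in serum/-LIF and 44.3 and 95.7 with Royalactin, and overlapped between the groups (log2 fold change 0.40 ± 0.71, SE). Of the 75-base stretches tiled over the exons of Col6a5, 5.45% matched another place in the genome with at most 2 mismatches, so part of its reads could have been split or dropped.

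The other 12 tested chains had means between 11.3 and 38.7 normalized counts counting Col9a3, and each rested on few reads. Col26a1 had the highest log2 fold change of all chains, 4.18 ± 1.97 (SE; limma unadjusted p = 0.0526, adjusted p = 0.544), from 1 and 0 reads in serum/-LIF and 46 and 22 reads with Royalactin. As a ratio of size-adjusted reads it was 47.6 (95% exact counting interval 8.27 to 1909). Col17a1, the membrane-spanning collagen of the hemidesmosome, was also above in both Royalactin libraries (log2 fold change 2.05 ± 1.72, SE, or 0.97 without serum/-LIF replicate 2). Col26a1 and Col17a1 reached the level for a test only through the Royalactin group, which favours a higher direction.

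Col8a2, a chain of the corneal Descemet's membrane, Col25a1, a membrane collagen of neurons, and Col6a2, a chain of type 6 filaments, lay below both serum/-LIF libraries in both Royalactin libraries. Their log2 fold changes were -3.00 ± 1.58, -2.93 ± 1.82 and -2.84 ± 1.71 (SE), and each had 0 reads in Royalactin replicate 1. Without that library the values were -0.72, -1.28 and -0.93. Col12a1, a collagen on the surface of type 1 fibrils, had 47 reads in serum/-LIF replicate 2, 1 read in Royalactin replicate 2 and none elsewhere, so its log2 fold change of -2.44 ± 3.09 (SE) came from 1 library. Col13a1, Col20a1, Col22a1, Col27a1 and Col6a4 overlapped between the groups, with log2 fold changes of 1.04, 1.85, -0.38, -0.13 and 0.70 and standard errors of 1.02 to 2.12. Over the 16 chains of other types the median was 0.11, with 8 lower and 8 higher.

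The 19 chains that were not tested had means of at most 9.16 normalized counts and at most 18 reads in any library. Besides the 5 without a read and the type 1, type 3, Col11a2 and Col9a1 chains named above, they were Col14a1, Col16a1, Col19a1, Col23a1, Col24a1, Col28a1, Col6a1, Col6a3 and Col6a6. Col6a6 had 0 and 0 reads in serum/-LIF and 14 and 3 with Royalactin, so only Royalactin replicate 1 exceeded the floor of 3 reads. Col14a1 and Col16a1 lay below both serum/-LIF libraries in both Royalactin libraries, and Col23a1 lay above them.

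Ratios of chains within a library do not depend on its size factor. Col18a1 exceeded Col4a1 per kb of exon by 2.22 and 2.29 times in serum/-LIF and by 4.85 and 5.02 times with Royalactin. Although each of these genes differed by about the same factor between the serum/-LIF replicates (1.78 for Col18a1 and 1.84 for Col4a1), their ratio was nearly the same in both, and the Royalactin libraries stood apart from it. Other ratios with Col4a1 across collagen types did not separate the groups. Col4a1 exceeded Col2a1 per kb by 4.34 and 6.46 times in serum/-LIF and by 5.96 and 7.41 times with Royalactin. The ratio of Col4a1 to Col5a1 per kb also overlapped between the groups. Col18a1 made up 52.2% and 49.5% of all collagen normalized counts in serum/-LIF and 67.1% and 68.7% with Royalactin.

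The rest of the collagen RNA was smaller with Royalactin. Type 4 chains summed to 2189 and 1216 normalized counts in serum/-LIF and 973 and 873 with Royalactin. Fibrillar chains summed to 586 and 351 in serum/-LIF and 287 and 178 with Royalactin, and for both sums the groups did not overlap. Other chains without Col18a1 summed to 452 and 455 in serum/-LIF and 351 and 511 with Royalactin, and overlapped. These sums and ratios were not tested.

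**Figure D4:**
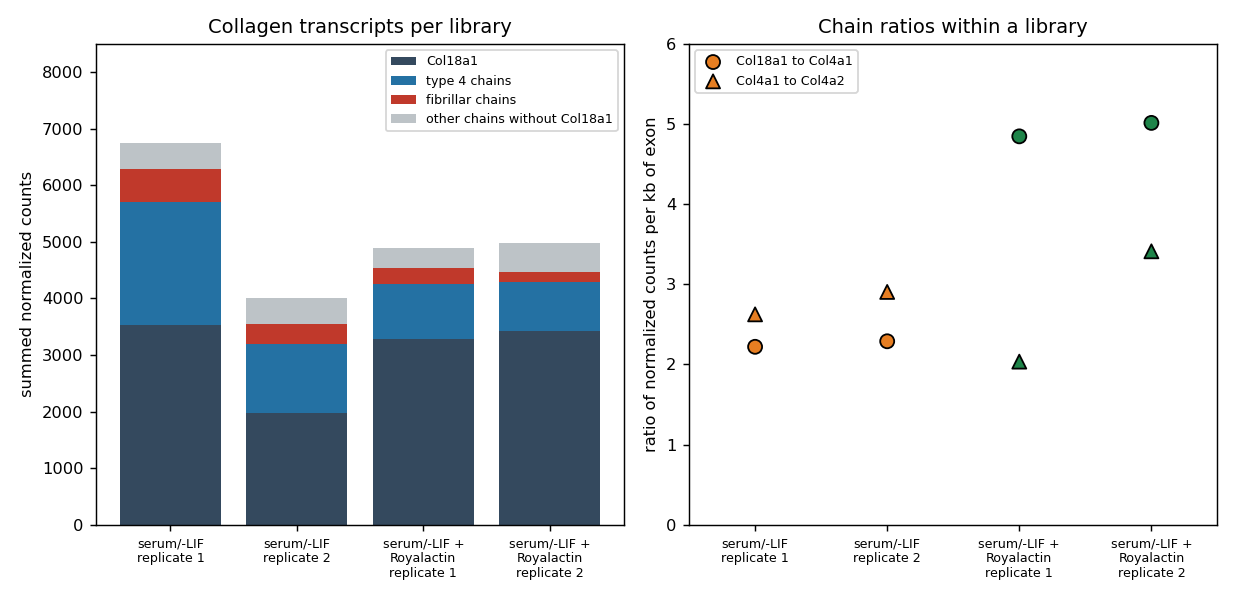
Collagen RNA in each library by class, in normalized counts, with Col18a1 shown apart from the other chains of its class, beside the ratios per kb of exon of Col18a1 to Col4a1 (circles) and Col4a1 to Col4a2 (triangles). The ratio of Col18a1 to Col4a1 is 2.22 and 2.29 in the serum/-LIF libraries and 4.85 and 5.02 in the Royalactin libraries.

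Within type 9, Col9a2 per kb was 0.561 and 0.575 times Col9a3 in serum/-LIF and 2.52 and 5.74 times with Royalactin, again without overlap between the groups. Col5a1 per kb was 0.384 and 0.870 times Col2a1 in serum/-LIF and 0.600 and 0.389 times with Royalactin, which overlapped.

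A collagen chain needs many partners. In the endoplasmic reticulum prolyl and lysyl residues are hydroxylated and sugars are added, chaperones hold the folded rod, and after export the ends are trimmed and lysyl oxidases cross-link the chains. Of 24 genes for these early steps 21 were tested, and none passed the adjusted p of 0.05. At an unadjusted p under 0.05, 2 were at least 2-fold lower and 1 at least 2-fold higher (3.61% and 3.52% of all tested genes). The median log2 fold change was 0.07. Plod2, which hydroxylates lysines that later become cross-links, measured 962 and 1276 normalized counts in serum/-LIF and 569 and 535 with Royalactin (log2 fold change -1.004 ± 0.32, SE; limma unadjusted p = 0.00702, adjusted p = 0.268). P4ha2, a prolyl hydroxylase, measured 158 and 219 in serum/-LIF and 87.5 and 53.0 with Royalactin (log2 fold change -1.44 ± 0.54, SE). Both enzymes were lower in both Royalactin libraries.

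Serpinh1, the collagen chaperone Hsp47, measured 1139 and 1054 normalized counts in serum/-LIF and 593 and 633 with Royalactin (log2 fold change -0.84 ± 0.31, SE; limma adjusted p = 0.378). Crtap, a partner of the prolyl 3-hydroxylase, had 292 and 62.1 in serum/-LIF and 291 and 448 with Royalactin, and its groups overlapped.

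Of 14 genes for processing and cross-linking 12 were tested, with a median log2 fold change of -0.76. None passed the adjusted p of 0.05. At an unadjusted p under 0.05, 2 were at least 2-fold lower and 2 at least 2-fold higher (3.61% and 3.52% of all tested genes). Lox, the founding lysyl oxidase, measured 46.8 and 44.5 normalized counts in serum/-LIF and 0 and 9.64 with Royalactin (log2 fold change -3.84 ± 1.54, SE; limma unadjusted p = 0.026, adjusted p = 0.432). Loxl2 measured 808 and 938 in serum/-LIF and 450 and 483 with Royalactin (log2 fold change -0.90 ± 0.32, SE; limma adjusted p = 0.359). Opposite to these, the propeptide-cleaving enzyme Adamts14 had 5.35 and 0 normalized counts in serum/-LIF and 42.3 and 82.6 with Royalactin, and its helper Pcolce had 45.5 and 43.5 against 102 and 154. Lox reached the level for a test only through the serum/-LIF group and Adamts14 only through the Royalactin group, which favours the direction seen for each.

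Bmp1, which also cleaves propeptides, was named after its values were seen, and measured 103 and 70.4 normalized counts in serum/-LIF and 33.2 and 16.5 with Royalactin. Pxdn, the peroxidase that cross-links type 4 collagen, was also named without being among the smallest p-values of its list. It measured 1012 and 566 in serum/-LIF and 447 and 399 with Royalactin (log2 fold change -0.84 ± 0.36, SE; limma adjusted p = 0.485). Pxdn lay below in both Royalactin libraries, as Col4a1 did.

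Collagen receptors and degrading enzymes were also without a call at the adjusted p of 0.05. Of 10 receptor genes 6 were tested, with a median log2 fold change of -0.35. At an unadjusted p under 0.05, 1 was at least 2-fold lower (3.61% of all tested genes). This was Ddr1, a receptor tyrosine kinase for collagen, with 546 and 277 normalized counts in serum/-LIF and 193 and 147 with Royalactin (log2 fold change -1.20 ± 0.44, SE; limma adjusted p = 0.378). Itgb1, the shared chain of the collagen-binding integrins, measured 5383 and 6855 in serum/-LIF and 3552 and 3224 with Royalactin (log2 fold change -0.84 ± 0.30, SE; limma adjusted p = 0.353).

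Of 10 genes for collagen degradation and its inhibitors 7 were tested, with a median of -0.42. At an unadjusted p under 0.05, 1 was at least 2-fold lower (3.61% of all tested genes). This was Timp3, a matrix-bound inhibitor of metalloproteinases, with 181 and 139 normalized counts in serum/-LIF and 56.3 and 30.3 with Royalactin (log2 fold change -1.91 ± 0.61, SE). Mmp2, the gelatinase that cuts denatured and type 4 collagen, measured 251 and 152 in serum/-LIF and 120 and 101 with Royalactin.

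Matrix partners lay on both sides. Of 8 fibril-associated genes 3 were tested. At an unadjusted p under 0.05, 1 was at least 2-fold lower and 1 at least 2-fold higher (3.61% and 3.52% of all tested genes). Fn1, fibronectin, measured 2007 and 954 normalized counts in serum/-LIF and 6072 and 3227 with Royalactin (log2 fold change 1.68 ± 0.39, SE; limma unadjusted p = 0.000812, adjusted p = 0.105). Dcn, decorin, a proteoglycan that binds fibrils, had 37.5 and 31.1 in serum/-LIF and no read with Royalactin, at least 13.5-fold lower against a floor of 3 reads per library. Dcn reached the level for a test only through the serum/-LIF group, which favours a lower direction.

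All 9 laminin, nidogen, perlecan and agrin genes, the non-collagen part of the basement membrane, were tested, with a median log2 fold change of 0.26 and 3 of 9 lower (50.6% of all tested genes were lower). Nid1, nidogen, which bridges laminin and type 4 collagen, measured 194 and 216 normalized counts in serum/-LIF and 714 and 472 with Royalactin (log2 fold change 1.50 ± 0.38, SE; limma unadjusted p = 0.00155, adjusted p = 0.141). Nid2, Lamc1 and Lama1 had log2 fold changes of 0.62, 0.83 and 0.95, and the groups overlapped for Lamc1 and Lama1. The difference between this list and the type 4 chains was not tested.

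**Figure D5:**
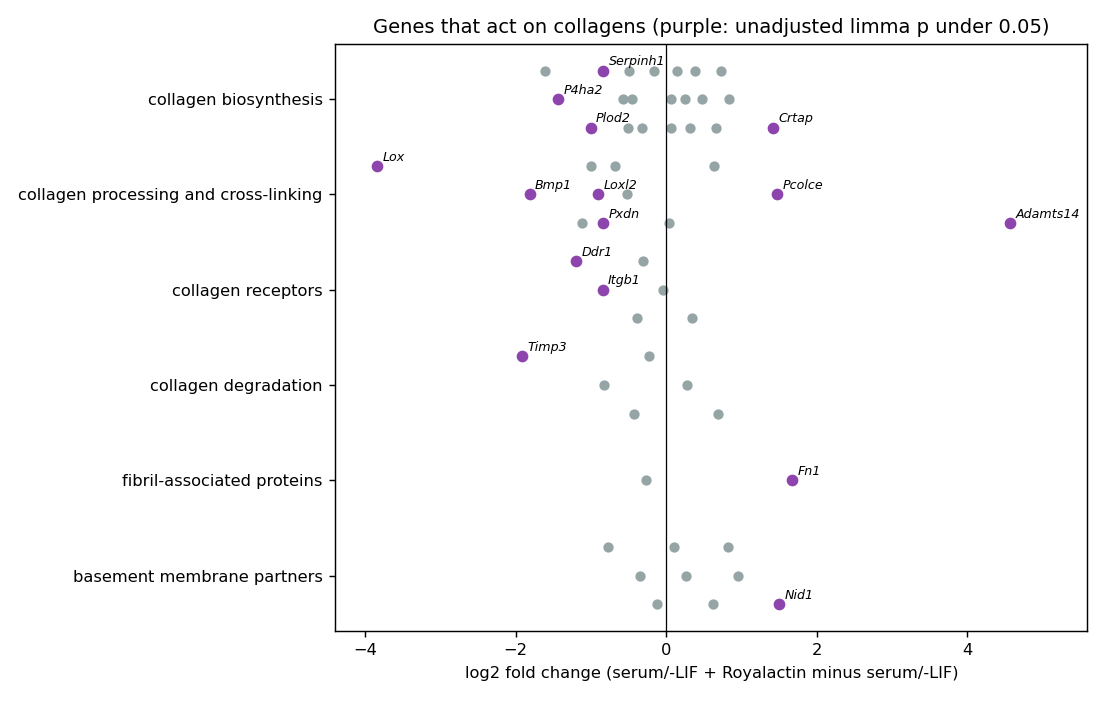
Log2 fold change of each tested gene in the 6 lists of collagen partners, serum/-LIF + Royalactin minus serum/-LIF, with unadjusted limma p under 0.05 in purple. Vertical offsets within a list only separate points, and Dcn and Timp4, listed at 0 in both Royalactin libraries, are left out.

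Markers of cell types were read in the same libraries. All 8 embryonic stem cell markers had reads, with sums of 25150 and 31240 normalized counts in serum/-LIF and 33780 and 41020 with Royalactin, and Sox2, Zfp42 and Esrrb rose at an adjusted limma p under 0.05. Nanog had a log2 fold change of 1.02 without passing it, Tdgf1 was lower in both Royalactin libraries (log2 fold change -0.45), and Pou5f1 and Utf1 overlapped between the groups. Of 12 fibroblast markers 5 (Pdgfrb, Fap, Postn, Prrx1 and S100a4) were at 0 in every library, and the list summed to 377 to 485 in serum/-LIF and 354 to 409 with Royalactin. Within it Twist1 measured 104 and 189 in serum/-LIF and 64.4 and 32.4 with Royalactin (log2 fold change -1.60; limma unadjusted p = 0.025). Both Twist1 and Dcn lay below in both Royalactin libraries. The other tested markers, Pdgfra, Fbln1 and Thy1, overlapped between the groups, with log2 fold changes of 2.38, 0.59 and -0.02. The median over the 5 tested markers was -0.02. Of 7 chondrocyte markers Matn1 and Chad were at 0 and Sox9 did not exceed 0.69 normalized counts, while the list summed to 100 to 116 in serum/-LIF and 89.5 to 159 with Royalactin.

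The 10 parietal endoderm markers, from cells that make a thick type 4 collagen membrane, summed to 1445 to 2306 normalized counts in serum/-LIF and 1579 to 2007 with Royalactin. These sums hide members that went both ways. Among the 7 tested markers 3 were lower in the fit, and the log2 fold changes centred on a median of 0.95. Gata4 (28.1 and 8.28 against 49.3 and 44.7) and the untested Sox17 were above in both Royalactin libraries. Dab2 (283.5 and 245 against 188 and 126) and Fst were below in both. Gata6 and Thbd were at 0 in both serum/-LIF libraries. The list shares Lama1 and Sparc with the partner lists and Pdgfra with the fibroblast list. The 6 smooth muscle markers had sums of 2795 and 3269 in serum/-LIF and 407 and 516 with Royalactin. Tagln and Cnn1, which make up most of the serum/-LIF sums, fell at an adjusted limma p under 0.05, whereas Des, Smtn and Myh11 overlapped between the groups. The 6 endothelial markers summed to 376 and 207 in serum/-LIF and 874 and 844 with Royalactin, with Emcn at 0. This sum came mostly from Pecam1 (221 and 138 against 638 and 584) and Tek. Kdr was also higher in both Royalactin libraries, while Tie1 was lower in both and Cdh5 overlapped between the groups. The smooth muscle sum moved in the same direction as the type 4 and fibrillar sums, and the part of any cell type in the collagen values was not tested.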

How the data were processed

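RNA of J1 cells was depleted of ribosomal RNA before sequencing. Per the labels and methods, the authors mapped the reads to mm9 with TopHat, counted them for each gene and deposited DESeq-normalized counts, a library-scaled read signal. Strand setting and annotation of that counting are not given in the sources used here. Deposited values were whole multiples of 1 read to within 0.01. They were tested as normalized counts with no count test, and read numbers are given for depth only. All 4 columns were assigned by name.

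Genes with a mean of at least 10 were tested with limma 3.58.1 in R 4.3.3 (log2(normalized count + 1), variance trend, two-sided, Benjamini-Hochberg over 12993 genes, no replicate term). A fold change is a difference of mean log2 values: the pseudocount shrinks it for low genes, and a library near 0 can carry it past the ratio of group means. Chains with a mean of at least 10 are named, and each partner or marker list is represented by its calls and smallest p-values. Members, lists and tests were chosen with earlier results of these data known. Coding sequences and exon lengths came from GENCODE on mm9, and exon tiles were mapped with minimap2 2.31-r1302. The fit was tested on simulated data (5 simulations of this comparison, 12759 to 12835 genes). It recovered 49.2% of the genes given a change and 69.7% at a change of 4-fold or more, with unchanged genes as 4.4% of calls. Alternatives were other pseudocounts (0.1 and 5), filters and scalings, limma without the trend, a replicate block and each library left out.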

Additional observations from a re-analysis of the deposited data

How the results depend on the processing

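No collagen chain passed an adjusted limma p of 0.05 under any alternative, and the lowest adjusted p of a chain ranged from 0.129 to 1.0. The same-numbered libraries share only a number (correlation of their deviations 0.0851 over 12993 genes). With the replicate block the number of calls over all genes was 391 against 64, and the lowest adjusted p of a chain was 0.129, for Col4a5. With the block Crtap, Plod2, Fn1, Nid1, Nanog and Pecam1 also passed, at adjusted limma p-values of 0.0456, 0.0462, 3.17e-07, 0.00596, 0.0243 and 0.000475.

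The 3 of 25 chains at an unadjusted limma p under 0.05 with a 2-fold difference stood beside 927 of all 12993 genes. They became 5 of 39 when all genes with a value above 0 were tested, beside 1106 of 16686 genes. Without the variance trend they became 5 of 25, beside 1079 of 12993 genes. With a library left out the number of chains changed, as did the number over all genes. The fibrillar median of -0.24 became -1.10 over all genes with a value above 0 and -1.23 at a mean of at least 50, which leaves 2 chains, and ranged from -1.25 to -0.38 with a library left out. The type 4 median of -2.11 became -1.41 with a pseudocount of 5 and -0.75 at a mean of at least 50, which leaves 2 chains, and ranged from -2.60 to -0.35 with a library left out. The filters, the replicate block and the fit without the trend do not alter a log2 fold change, so could not change its sign. Settings other than leaving out a library changed the sign of none of the 25 chains. Leaving one out changed it for 10: Col11a1 (-0.69 to 0.96), Col13a1 (-1.24 to 2.36), Col18a1 (-0.0714 to 0.76), Col20a1 (-0.43 to 4.14), Col22a1 (-1.07 to 0.31), Col27a1 (-1.07 to 0.81), Col5a2 (-0.88 to 0.39), Col6a5 (-0.14 to 0.95), Col7a1 (-2.20 to 0.27) and Col9a3 (-1.23 to 0.0848). With a library left out its group holds 1 library, which is assumed to vary like the other group. Why these values shift was not tested. Most chains rest on few reads, which limits their precision.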

Other observations

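The serum/-LIF replicates differed from each other in one direction for the leading collagen chains and for most basement membrane genes. Serum/-LIF replicate 1 exceeded replicate 2 by 1.78-fold for Col18a1, 1.84-fold for Col4a1, 2.03-fold for Col4a2 and 2.73-fold for the fibrillar chain Col2a1, and for 8 of the 9 laminin, nidogen, perlecan and agrin genes, up to 4.90-fold for Lamb2. Over all tested genes the median log2 difference between these replicates was 0.03. Royalactin replicate 1 exceeded replicate 2 for 7 of the same 9 genes, up to 2.37-fold for Hspg2, and by 1.66-fold for Col4a2 and 1.90-fold for Col5a1. It was 0.99 times replicate 2 for Col4a1 and 0.96 times for Col18a1.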
